A study of Homo sapiens with 12 samples.

Results

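The genes described here encode the enzymes of mitochondrial and peroxisomal fatty acid oxidation. A list of 36 genes was taken by symbol and older alias, and 35 of them were measured among 12138 genes on the arrays. Of these 35, 22 encode mitochondrial enzymes, 7 peroxisomal enzymes, 3 enzymes found in both organelles (CRAT, ACAD11 and ECI2) and 3 enzymes of other membranes (ACSL1, ACSL4 and CPT1C). ACSL3 was not analysed here. Where a gene had several probes, the brightest one was used.

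Fatty acid oxidation shortens acyl chains in repeated rounds of dehydrogenation, hydration, a further dehydrogenation and thiolysis. Long chains are activated to acyl-CoA, moved into mitochondria as carnitine esters and broken down there, with their electrons passed to the respiratory chain. Peroxisomes take very long, branched and dicarboxylic chains, shorten them with oxidases that make hydrogen peroxide, and hand the products on.

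RNA of SK-N-Be(2)C cells, an established human neuroblastoma line, was read on Illumina HumanHT-12 v4 BeadChips, with 3 arrays in each of 4 groups. WT were the untreated parental cells. WT-v were parental cells exposed at intervals to vorinostat (SAHA), a histone deacetylase inhibitor. DoxR were cells selected in stepwise rising doses of doxorubicin until resistant, and DoxR-v were selected alike but also got short courses of vorinostat, timed to the log steps of the doxorubicin dose. All 4 groups share the parental line. DoxR and DoxR-v came from parallel selections, so an effect of vorinostat and a difference between selections cannot be told apart, and the sources used here do not say whether either line is a clone. Nothing in the labels says that the 3 arrays of a group came from separate cultures, so p-values measure the spread between these specimens, which may be technical.

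Between 31.3% and 36.5% of probes were detected on each array, and arrays of a group correlated at 0.981 or more over all probes. Of 8 neuroblastoma markers, the 7 with a probe were detected on every array, and their mean log2 signal was 12.07 to 12.29 on WT, 12.06 to 12.19 on WT-v, 11.43 to 11.55 on DoxR and 11.83 to 12.05 on DoxR-v arrays. Among them DBH, which makes noradrenaline, differed from WT by log2 −4.09 in DoxR cells (adjusted p = 2.3e-08). Of the 7, 1 was called higher in DoxR cells (PHOX2A, log2 0.79) and 3 lower, where 17.4% and 16.3% of all genes were. In DoxR-v cells 0 were higher than in WT and 2 lower, with HAND2 at −1.63, where 13.3% and 12.6% of all genes were called. Of the 6 blood and marrow markers with a probe, 5 were detected on no array of any group, and the sixth, CD14, was lower than in WT in the other 3 groups (log2 −1.37 to −1.64). Of the 6 Schwann and stromal markers with a probe, 2 were detected on all arrays of WT, DoxR and DoxR-v cells and 3 in WT-v cells, with a mean log2 signal between 5.64 and 6.78. COL3A1, a fibrillar collagen detected on no WT array, was at least 4.12-fold higher in DoxR (adjusted p = 2.4e-08) and was also called higher in WT-v cells (adjusted p = 2e-06). PDGFRB, a growth factor receptor, had differences from WT of log2 −3.68 (DoxR) and −2.39 (DoxR-v; adjusted p = 2.3e-08 and 2.7e-06), and LUM, a matrix proteoglycan, by −2.07 and 2.79 (adjusted p = 1.6e-06 and 2.2e-07). The part of these shifts in the results below was not tested.

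A gene was called where its adjusted p was under 0.1 and its change over 1.5-fold. In DoxR-v cells 13 of the 35 members were higher than in WT and 2 were lower, where 13.3% and 12.6% of all genes were called higher and lower. The 13 were CPT2, SLC25A20, CRAT, ACADM, ACADSB, ACAD10, ACAD11, HADHB, ACAA2, ECI2, EHHADH, ACAA1 and ACOT4, and those lower were HADH and HSD17B10. ACADSB was detected on DoxR-v arrays only, and its bound was 1.02-fold, under the 1.5-fold of a call. The median log2 difference of the members was 0.39 (0.30 with the 3 members that have only a bound set to it), against 0.02 over all genes, and 23 of 35 lay above 0. With the deposited values 6 members were higher and 2 lower, and with median scaling, which moved the median of all genes to log2 0.23, 19 were higher and 1 lower.

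DoxR cells, which became resistant without vorinostat, had 3 members higher than in WT (8.57%) and 8 lower (22.9%). Of all genes 17.4% were higher and 16.3% lower in that comparison. ACOT4, ACAA2 and CPT1C were higher. ECI2, ETFDH, EHHADH, HSD17B10, ACOT2, ACOT8, ACAD9 and HADH were lower, and the members' median difference was log2 −0.10, against 0.01 over all genes. The balance of this comparison depended on scaling. With arrays scaled on the median signal, which moved the median of all genes to log2 0.18, 7 members were higher and 5 lower, while the deposited normalized values gave 1 higher and 6 lower.

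WT-v cells had the fewest members called against WT, with ECI2, EHHADH and ACOT4 higher and HSD17B10, ACSL1, ECHS1 and DECR1 lower (3 and 4 of 35, where 14.5% and 12.5% of all genes were called higher and lower). Median scaling, with the median of all genes at log2 0.24, gave 5 higher and 4 lower members, and the deposited values gave 1 and 4. The members' median difference was log2 0.01 and that of all genes 0.03.

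DoxR-v cells also stood above both DoxR and WT-v cells. Against DoxR, 14 members were higher and 1 (DECR1) was lower, where 14.7% and 14.4% of all genes were called. Against WT-v, 14 were higher and 1 (ECI1) was lower, where the shares of all genes were 12.6% and 12.8%. Both counts of 14 include ACADSB, which was detected on DoxR-v arrays only. The count against DoxR also includes ACADS, detected on no DoxR array, whose bound of 1.31-fold is under the 1.5-fold of a call. The deposited values gave 10 and 1 against DoxR and 7 and 0 against WT-v. These comparisons share the DoxR-v arrays, and those against WT share the WT arrays, so their counts are not independent of each other.

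**Figure D1:**
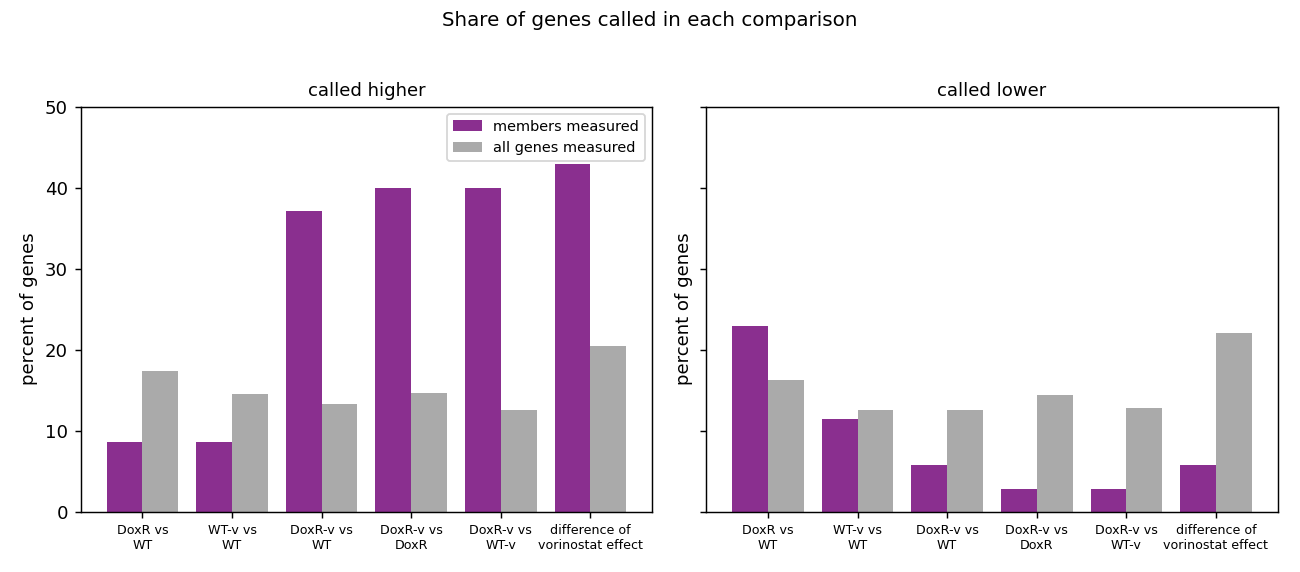
Percent of the 35 measured members (purple) and of all 12138 measured genes (grey) called higher (left) and lower (right) in each of 6 comparisons, at an adjusted p under 0.1 and a change over 1.5-fold. In the 3 comparisons of DoxR-v cells with another group, 37.1% to 40% of members were higher, against 12.6% to 14.7% of all genes.

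The same order appeared array by array. In 13 of 35 members (37.1%) all 3 DoxR-v arrays lay above all 9 other arrays, as did 7.4% of all genes. They were 6 mitochondrial enzymes (CPT2, SLC25A20, ACADM, ACADSB, ACAD10 and HADHB), 4 peroxisomal ones (ACOX3, ACAA1, ACOT4 and ACOT8) and all 3 found in both organelles. ACADSB was detected on 2 DoxR-v arrays and no other, so it passed the detection filter only through the group where it was high. In 9 members (25.7%) all DoxR arrays lay below the other 9, against 11.1% of all genes. ECI2, ACAD11 and ACOT8 were in both sets. The mean was highest in DoxR-v cells for 17 members, against 22.1% of all genes, and lowest in DoxR cells for 13, against 28.6% of all genes. In bulk RNA, fewer cells that use a gene and less of its RNA per cell cannot be told apart.

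Split by organelle, 7 of 22 mitochondrial members were higher and 2 lower in DoxR-v than in WT cells. Of the peroxisomal members 3 of 7 were higher, as were all 3 in both organelles. The 7 mitochondrial ones include ACADSB, which passed the detection filter only through DoxR-v arrays and had a bound of 1.02-fold. In DoxR cells 1 mitochondrial member was higher and 5 were lower, and among peroxisomal members 1 was higher and 2 were lower. Of all genes 13.3% were higher and 12.6% lower than in WT in DoxR-v cells, and 17.4% and 16.3% in DoxR cells. Some of these small counts lie near those shares. A difference between the organelles was not tested.

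**Figure D2:**
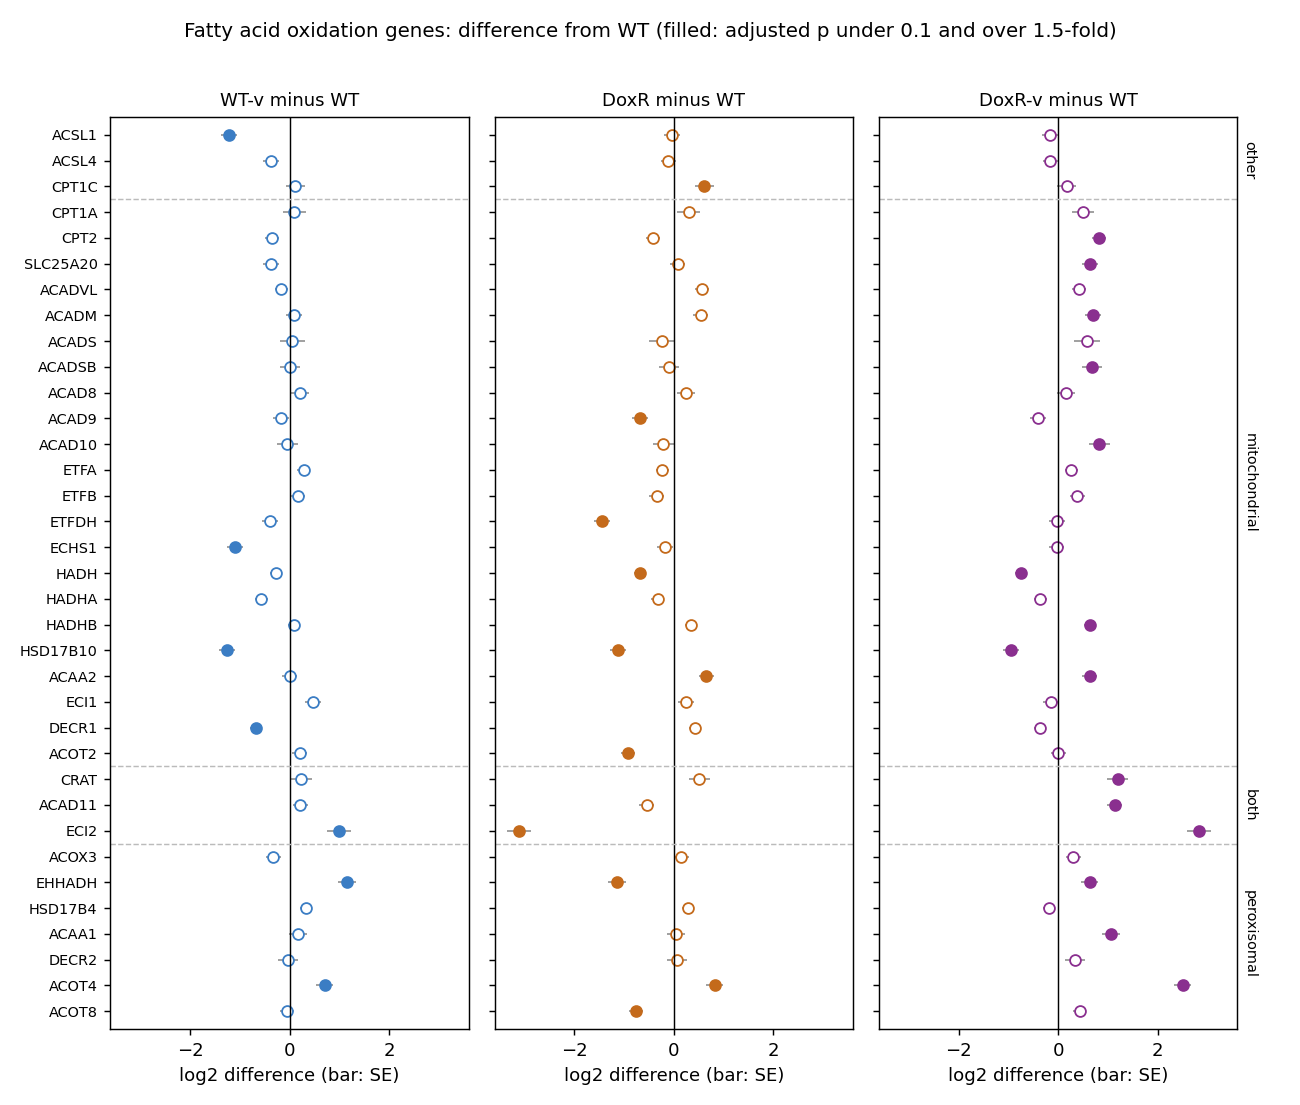
Log2 difference from WT of each measured member in WT-v, DoxR and DoxR-v cells (3 arrays a group), ordered by location and pathway step. Points are differences of group means with their standard errors, and filled points were called. Most filled points lie left of 0 in DoxR and right of 0 in DoxR-v cells, with ECI2 farthest out in both. With median scaling 7 of the 12 members called in DoxR cells were higher.

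ECI2, an enoyl-CoA isomerase that shifts double bonds of unsaturated acyl chains so that oxidation can go on, varied more than any other member. Its log2 signal was 8.07, 8.38 and 8.06 on the WT arrays, 9.07, 9.66 and 8.77 on WT-v, 4.74, 4.89 and 5.56 on DoxR and 10.92, 11.01 and 11.07 on DoxR-v arrays. No groups overlapped, and DoxR cells were near background, with the probe detected on 1 of 3 arrays there and on every other array. Against WT the log2 difference was −3.11 ± 0.24 (SE) in DoxR (adjusted p = 4.9e-07), 0.99 ± 0.24 in WT-v (adjusted p = 0.00699) and 2.83 ± 0.24 in DoxR-v cells (adjusted p = 2.5e-06). DoxR-v cells exceeded DoxR cells by log2 5.94 (adjusted p = 1.1e-09). A second ECI2 probe ran the same way, with a change of log2 1.34 in WT-v (adjusted p = 0.000131) and 2.80 in DoxR-v cells (adjusted p = 1.6e-07). It was detected on no DoxR array, where the signal was at least 2.87-fold below WT and at least 19.9-fold below DoxR-v. The deposited normalized values gave smaller differences of the first probe, log2 −1.32 for DoxR and 2.39 for DoxR-v.

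The nearest measured genes on either side of ECI2 in the RefSeq order of GRCh38.p14 were PRP4K and CDYL. PRP4K, a kinase of the splicing machinery, rose in WT-v cells, as ECI2 did (log2 0.60, adjusted p = 0.0249), and had differences from WT of 0.23 in DoxR (adjusted p = 0.363) and −0.27 in DoxR-v cells (adjusted p = 0.308). CDYL, a chromatin co-repressor, differed by −0.03 in WT-v (adjusted p = 0.923) and −0.29 in DoxR cells (adjusted p = 0.267), and fell by log2 0.97 in DoxR-v cells (adjusted p = 0.00227). The promoter window of ECI2 is shown because the gene moved farthest. It runs from 250 bases before to 50 after a RefSeq start on GRCh38.p14 (chr6:4135526-4135825, minus strand), with 6 GC boxes (GGGCGG or its reverse complement, CCGCCC) in capitals.
ECI2: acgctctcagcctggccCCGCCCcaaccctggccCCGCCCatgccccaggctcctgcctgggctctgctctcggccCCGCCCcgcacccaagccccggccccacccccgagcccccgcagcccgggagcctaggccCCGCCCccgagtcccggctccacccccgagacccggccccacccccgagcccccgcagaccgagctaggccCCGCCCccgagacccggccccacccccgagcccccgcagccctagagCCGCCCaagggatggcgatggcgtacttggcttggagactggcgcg

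Windows of this kind were given for 29 of the 36 genes, and 5 motifs were searched on both strands in all 27305 windows of the table, each gene at its first listed start. The GC box occurred in 23 of 29 members (79.3%), against 44.6% of all windows. The CCAAT box (CCAAT) occurred in 7 members (24.1%, against 35.7%), 3 copies of it in ACOT8, and the E-box CACGTG in 1 (3.45%, against 7.43%). The nuclear receptor motif AGGTCA was in 1 member, ACAD10 (3.45%, against 13.9%), and the longer TNAAGGTCA, which contains it and is read by estrogen-related receptors, in 0 of 29, against 0.963% of all windows. A match is a run of letters and no evidence of binding, and the table includes genes of many kinds.

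The steps that bring long chains into mitochondria rose in part in DoxR-v cells. CPT2, the inner-membrane carnitine palmitoyltransferase, had log2 signals of 8.61, 8.46 and 8.25 on WT, 8.01, 8.15 and 8.12 on WT-v, 7.89, 7.95 and 8.24 on DoxR and 9.26 on all 3 DoxR-v arrays. Every DoxR-v array lay above every other array, while WT-v and DoxR arrays overlapped each other and lay below those of WT. CPT2 was log2 0.82 ± 0.14 above WT (adjusted p = 0.000878) and 1.23 above DoxR (adjusted p = 2.2e-05) in DoxR-v cells, whereas its differences from WT of −0.41 in DoxR cells and −0.35 in WT-v cells were not called. Its promoter window (chr1:53196574-53196873, plus strand), shown as that of a shuttle gene whose DoxR-v arrays were all apart, has 4 GC boxes in capitals.
CPT2: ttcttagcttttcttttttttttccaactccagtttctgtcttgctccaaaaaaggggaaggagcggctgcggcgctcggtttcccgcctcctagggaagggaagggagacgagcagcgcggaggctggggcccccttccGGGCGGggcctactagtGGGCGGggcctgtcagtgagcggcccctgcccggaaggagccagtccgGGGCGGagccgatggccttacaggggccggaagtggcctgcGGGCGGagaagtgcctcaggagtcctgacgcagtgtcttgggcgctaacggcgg

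SLC25A20, the carrier that exchanges acylcarnitine for carnitine across the inner membrane, had log2 signals of 7.66, 7.94 and 7.58 on WT, 7.66, 7.28 and 7.13 on WT-v, 7.88, 7.84 and 7.68 on DoxR and 8.27, 8.38 and 8.46 on DoxR-v arrays. DoxR-v arrays were again the highest, and WT arrays overlapped those of WT-v and of DoxR. DoxR-v cells exceeded WT by log2 0.65 (adjusted p = 0.00874) and WT-v by 1.02 (adjusted p = 0.000443), and with a second probe by 0.90 and 1.35 (adjusted p = 0.000926 and 4.2e-05). The first probe missed the call against WT with the deposited values (log2 0.42) and without the third WT array (0.57).

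CPT1A, the outer-membrane transferase that sets the rate of entry, was not called in any comparison. Its log2 signals were 6.82, 6.79 and 7.55 on WT, 6.91, 7.29 and 7.25 on WT-v, 7.27, 7.50 and 7.28 on DoxR and 7.42, 7.96 and 7.26 on DoxR-v arrays, and all groups overlapped with WT. The difference of DoxR-v from WT was 0.50 ± 0.23 (adjusted p = 0.119). With median scaling, which also raised the median of all genes, DoxR (log2 0.63) and DoxR-v cells (0.87) were called higher than WT. A dimmer CPT1A probe, detected on no WT array, was at least 1.16-fold higher in DoxR cells (adjusted p = 0.00167). In DoxR-v cells it was at least 1.19-fold higher (adjusted p = 0.00195). Another dim probe gave 0.22 and 0.27 there, which were not called, so the probes ran the same way in these lines. In WT-v cells the brightest probe gave 0.10 and these probes −0.36 and 0.53, none of them called. A difference between the probes was not tested.

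CRAT, which makes carnitine esters of short chains in mitochondria and peroxisomes, was dim. Its log2 signals were 4.91, 5.01 and 5.48 on WT arrays, where it was not detected, 5.46, 5.62 and 5.01 on WT-v, 6.01, 5.62 and 5.29 on DoxR and 6.34, 6.46 and 6.18 on DoxR-v arrays. DoxR-v arrays were above all others and DoxR arrays overlapped WT. CRAT was at least 1.61-fold higher in DoxR-v than in WT cells (adjusted p = 0.00123). CPT1C, a form of the transferase made in neurons and placed in the endoplasmic reticulum, was higher than in WT in DoxR cells only among the 3 groups (log2 0.61, adjusted p = 0.0222). The call was lost without the third WT array (0.39) or the second DoxR array (0.56). It was also lost without background correction (0.50), with an offset of 50 (0.56) and with the deposited values (0.46).

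The acyl-CoA synthetases activate long chains before the shuttle. ACSL1 had log2 signals of 8.65, 8.73 and 8.70 on WT, 7.43, 7.71 and 7.30 on WT-v, 8.66, 8.57 and 8.74 on DoxR and 8.82, 8.35 and 8.42 on DoxR-v arrays. WT-v arrays were apart below all others, which overlapped. It fell by log2 1.21 in WT-v cells (adjusted p = 0.000116), and its differences from WT were −0.04 (DoxR) and −0.17 (DoxR-v). ACSL4, which prefers arachidonic acid, was not called in any comparison (log2 −0.37 to 0.32).

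**Figure D3:**
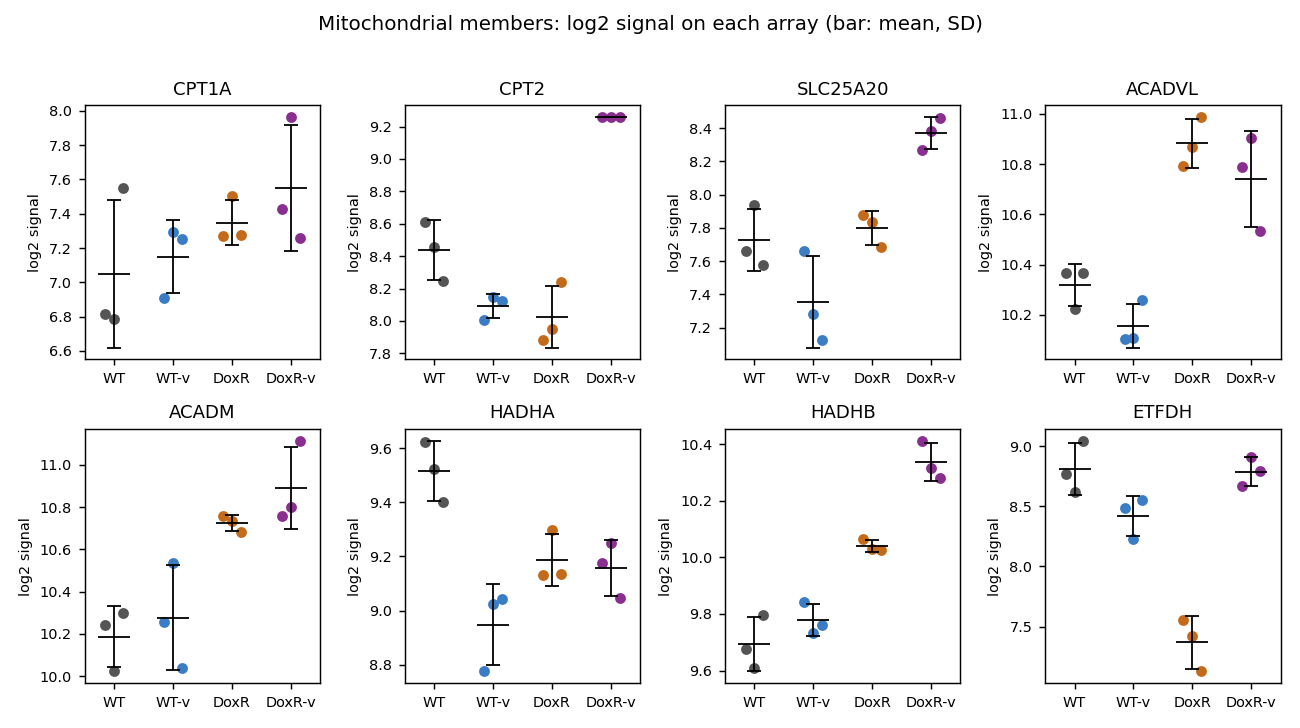
Log2 signal of 8 mitochondrial members on each array of the 4 groups (3 a group). Points are arrays, the long bar is the mean and the whiskers are 1 SD, and each panel has its own scale. CPT2, SLC25A20 and HADHB are highest on the DoxR-v arrays, CPT1A overlaps between groups, and ETFDH is lowest on the DoxR arrays.

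Acyl-CoA dehydrogenases take the first step on each chain length. ACADM, the medium-chain enzyme, had log2 signals of 10.24, 10.02 and 10.30 on WT, 10.26, 10.54 and 10.04 on WT-v, 10.76, 10.73 and 10.68 on DoxR and 10.76, 10.80 and 11.11 on DoxR-v arrays. Both resistant lines lay above both groups that never met doxorubicin. The difference from WT was 0.70 in DoxR-v (adjusted p = 0.00476) and 0.54 in DoxR cells, which was below the 1.5-fold bound for a call.

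ACADVL, the very-long-chain enzyme of the inner membrane, was placed alike. Its log2 signals were 10.37, 10.22 and 10.37 on WT, 10.11, 10.11 and 10.26 on WT-v, 10.79, 10.87 and 10.99 on DoxR and 10.79, 10.90 and 10.53 on DoxR-v arrays, so the resistant lines did not overlap WT. Its differences from WT, 0.56 ± 0.14 in DoxR (adjusted p = 0.0053) and 0.42 ± 0.14 in DoxR-v cells (adjusted p = 0.033), were under 1.5-fold and so not called. Of 2 dimmer ACADVL probes, 1, detected on a single WT array, was called higher in DoxR (log2 0.74, adjusted p = 0.0152) and DoxR-v cells (0.73, adjusted p = 0.0221).

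ACAD10 and ACAD11, less studied members of this family, rose in DoxR-v cells. ACAD11 had log2 signals of 8.59, 7.97 and 8.20 on WT, 8.51, 8.44 and 8.46 on WT-v, 7.77, 7.65 and 7.71 on DoxR and 9.45, 9.33 and 9.38 on DoxR-v arrays. The DoxR-v arrays were the highest and the DoxR arrays the lowest of all. ACAD11 was log2 1.13 above WT (adjusted p = 0.000138) and 1.67 above DoxR (adjusted p = 2.9e-06). ACAD10 had 7.91, 7.06 and 7.53 on WT, 7.20, 7.46 and 7.71 on WT-v, 7.22, 7.39 and 7.26 on DoxR and 8.21, 8.61 and 8.15 on DoxR-v arrays. Only the DoxR-v arrays of ACAD10 were apart, at log2 0.82 above WT (adjusted p = 0.0104), which was not called with the deposited values (0.51).

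Of the other dehydrogenases, ACADSB, which acts on branched short chains from isoleucine, was at the detection limit. It was detected on 2 DoxR-v arrays and on none of the 9 others, and was at least 1.02-fold higher in DoxR-v than in WT cells (adjusted p = 0.0198), a call that was lost without the first WT array (log2 0.57). ACADS, the short-chain enzyme, was detected on 3 DoxR-v arrays and 1 WT-v array, and exceeded its DoxR signal at least 1.31-fold in DoxR-v cells (adjusted p = 0.0294), a call lost without the third DoxR array (log2 0.70) or the first DoxR-v array (0.63). ACAD9, which also helps to assemble respiratory complex I, fell by log2 0.68 in DoxR cells (adjusted p = 0.00456), a call lost with median scaling (−0.43). ACAD8, the isobutyryl-CoA enzyme of valine breakdown, was not called in any comparison (log2 −0.30 to 0.25).

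Electrons from these enzymes pass through the flavoprotein ETFA and ETFB to ETFDH, which reduces ubiquinone. ETFDH had log2 signals of 8.77, 8.62 and 9.04 on WT, 8.48, 8.23 and 8.55 on WT-v, 7.56, 7.42 and 7.13 on DoxR and 8.67, 8.91 and 8.79 on DoxR-v arrays. The DoxR arrays lay below all the others, and DoxR-v arrays lay within the range of WT. ETFDH fell by log2 1.44 in DoxR cells (adjusted p = 1.7e-05) and differed from WT by −0.02 in DoxR-v cells. PPID, a cyclophilin gene beside it in the RefSeq order, fell in DoxR (log2 −1.34, adjusted p = 0.000921) and DoxR-v cells (−1.31, adjusted p = 0.00174). C4orf46, on the other side, was not called, with 0.22 in DoxR (adjusted p = 0.352) and −0.29 in DoxR-v cells (adjusted p = 0.248). ETFB was log2 0.73 above its DoxR level in DoxR-v cells (adjusted p = 0.00215). A second ETFB probe gave 0.54 there, which was not called, and was called lower in DoxR than in WT cells (−0.63, adjusted p = 0.0136). ETFA was not called in any comparison (largest difference 0.50, DoxR-v against DoxR).

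The mitochondrial trifunctional protein joins HADHA, with hydratase and dehydrogenase activity, and HADHB, the thiolase, which are made from genes placed head to head. HADHA had log2 signals of 9.62, 9.52 and 9.40 on WT, 8.78, 9.02 and 9.04 on WT-v, 9.13, 9.30 and 9.13 on DoxR and 9.18, 9.25 and 9.05 on DoxR-v arrays. HADHB had 9.67, 9.61 and 9.80 on WT, 9.84, 9.73 and 9.76 on WT-v, 10.07, 10.03 and 10.02 on DoxR and 10.41, 10.32 and 10.28 on DoxR-v arrays. HADHA was highest on the WT arrays and HADHB highest on the DoxR-v arrays, with no overlap in either case. HADHB rose by log2 0.64 in DoxR-v cells (adjusted p = 0.0014; with the deposited values 0.58 and not called), while HADHA differed by −0.36 ± 0.13 there (adjusted p = 0.061), −0.33 in DoxR and −0.57 in WT-v cells, none of which was called. The difference between the 2 subunits was not tested.

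Their promoter windows overlap by 194 bases (chr2:26244689-26244882), and the RefSeq starts are 307 bases apart. The window of HADHB (chr2:26244689-26244988, plus strand), shown because part of it is also in the HADHA window, has 2 GC boxes in capitals.
HADHB: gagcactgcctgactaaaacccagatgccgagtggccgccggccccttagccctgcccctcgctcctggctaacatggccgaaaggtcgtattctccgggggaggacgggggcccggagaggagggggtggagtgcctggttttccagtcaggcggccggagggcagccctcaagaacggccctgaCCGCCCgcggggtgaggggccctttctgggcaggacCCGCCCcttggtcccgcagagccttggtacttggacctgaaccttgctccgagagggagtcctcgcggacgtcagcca

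Shorter chains are handled by matrix enzymes, of which several were lower than in WT. HSD17B10, a short-chain hydroxyacyl-CoA dehydrogenase that is also part of mitochondrial RNase P, had log2 signals of 10.16, 10.46 and 10.07 on WT, 8.82, 9.10 and 9.02 on WT-v, 8.98, 9.04 and 9.32 on DoxR and 9.32, 9.07 and 9.43 on DoxR-v arrays. WT arrays were apart above the other 3 groups. HSD17B10 fell in every group against WT, by log2 1.12 in DoxR (adjusted p = 0.000123), by 1.25 in WT-v (adjusted p = 0.000112) and by 0.96 in DoxR-v cells (adjusted p = 0.000703), and it was the only member called in the same direction against WT in all 3 groups apart from ACOT4. A second probe gave −1.14, −1.36 and −1.04.

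ECHS1, the short-chain hydratase, had log2 signals of 10.71, 10.76 and 10.45 on WT, 9.24, 9.85 and 9.52 on WT-v, 10.45, 10.49 and 10.46 on DoxR and 10.57, 10.63 and 10.61 on DoxR-v arrays. As with ACSL1, WT-v arrays were apart below the rest. ECHS1 fell by log2 1.10 in WT-v cells (adjusted p = 0.000256). HADH, the matrix hydroxyacyl-CoA dehydrogenase, fell in both resistant lines, by 0.67 in DoxR (adjusted p = 0.00071) and by 0.76 in DoxR-v cells (adjusted p = 0.000498). With median scaling these differences were −0.55 and −0.57 and were not called. ACAA2, the matrix thiolase, rose by 0.65 in DoxR (adjusted p = 0.00367) and 0.63 in DoxR-v cells (adjusted p = 0.00642), the latter not called with the deposited values (0.57).

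Unsaturated chains need isomerases and a reductase. ECI1, the mitochondrial isomerase, was not called against WT in any group, and DoxR-v cells differed from WT-v cells by log2 −0.61 (adjusted p = 0.0112). That call was lost without the third WT-v array (−0.50) or the third DoxR-v array (−0.55). It was also lost without background correction (−0.57), with the deposited values (−0.56) and with median scaling (−0.57). DECR1, the mitochondrial dienoyl-CoA reductase, fell by 0.67 in WT-v cells (adjusted p = 0.00126) and the DoxR-v level lay below that of DoxR (−0.80, adjusted p = 0.000223). ACOT2, a matrix thioesterase that frees the fatty acid again, fell by 0.92 in DoxR cells (adjusted p = 0.000326). The mean of its probes differed by −0.39 and was not called, but it includes a probe detected on no WT or DoxR array.

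In peroxisomes, ACOT4, a thioesterase for succinyl-CoA and dicarboxylic chains, rose in all 3 groups. Its log2 signals were 5.52, 5.78 and 5.77 on WT, 6.29, 6.72 and 6.18 on WT-v, 6.27, 6.77 and 6.49 on DoxR and 8.28, 8.18 and 8.12 on DoxR-v arrays. WT arrays were the lowest, with detection on 2 of 3, WT-v and DoxR arrays overlapped, and DoxR-v arrays lay above all. The difference from WT was 0.71 in WT-v (adjusted p = 0.00783), 0.82 in DoxR (adjusted p = 0.00221) and 2.50 ± 0.17 in DoxR-v cells (adjusted p = 4.2e-07). With the deposited values it was 0.23, 0.27 and 1.18, and only the last was called. Without the second WT-v array the WT-v difference was 0.54 and was not called. ACOT4 has close copies beside it in ACOT1 and ACOT2, so the probe of each of these genes may also read RNA of the others. ACOT1, a cytosolic form, fell by 0.75 in DoxR cells (adjusted p = 0.00144) and stood 1.18 above that level in DoxR-v cells (adjusted p = 5.1e-05).

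EHHADH, the peroxisomal bifunctional enzyme for dicarboxylic chains, had log2 signals of 5.76, 6.24 and 6.55 on WT, 7.42, 7.19 and 7.41 on WT-v, 5.09, 5.08 and 4.96 on DoxR and 6.88, 6.82 and 6.74 on DoxR-v arrays. The 4 groups did not overlap, with WT-v highest and DoxR detected on no array. It rose by log2 1.16 in WT-v (adjusted p = 0.000402) and 0.63 in DoxR-v cells (adjusted p = 0.0171), and was at least 1.66-fold lower in DoxR than in WT cells (adjusted p = 0.000241). With the deposited values all 3 calls were lost (0.50 in WT-v, 0.24 in DoxR-v and −0.32 in DoxR cells). Without background correction those of DoxR (−0.43) and DoxR-v (0.31) were, and the DoxR-v call also with an offset of 50 (0.45) or without the first WT array (0.42). C3orf70, measured next to it in the RefSeq order, rose by 0.90 in WT-v (adjusted p = 0.00433) and 2.47 in DoxR-v cells (adjusted p = 1.7e-06). MAP3K13, on the other side, was not called, with −0.25 in WT-v (adjusted p = 0.431) and −0.28 in DoxR-v cells (adjusted p = 0.396).

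**Figure D4:**
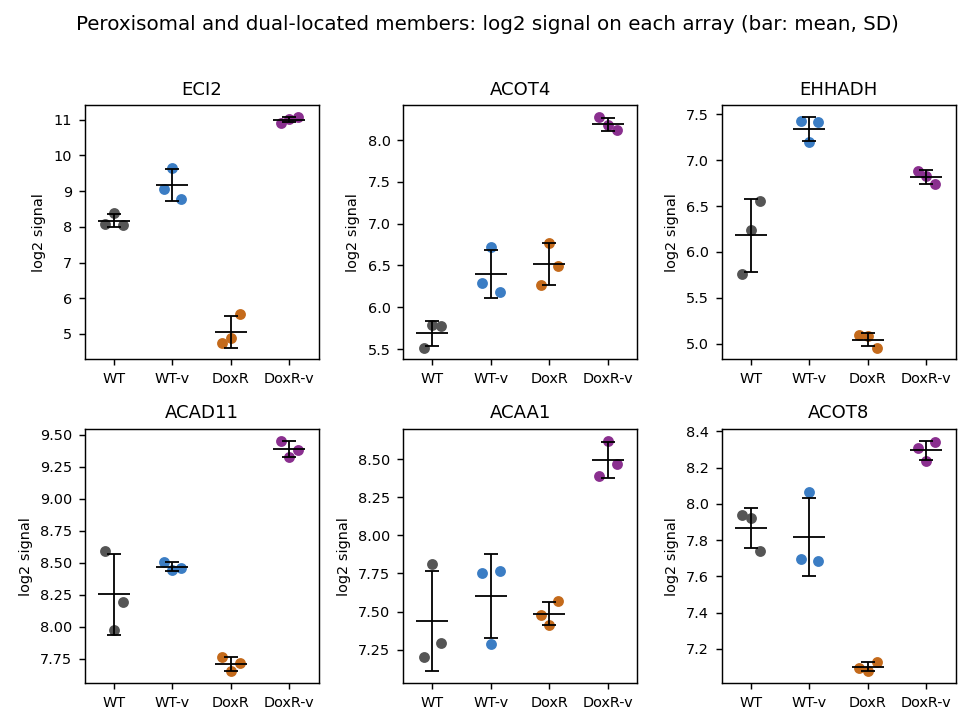
Log2 signal of ECI2 and ACAD11, found in both organelles, and of 4 peroxisomal members on each array of the 4 groups (3 a group). Points are arrays, the long bar is the mean and the whiskers are 1 SD, and each panel has its own scale. DoxR-v arrays are the highest in all panels but that of EHHADH, where WT-v arrays are.

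ACAA1, the peroxisomal thiolase, had log2 signals of 7.20, 7.81 and 7.29 on WT, 7.75, 7.28 and 7.77 on WT-v, 7.48, 7.41 and 7.57 on DoxR and 8.39, 8.62 and 8.47 on DoxR-v arrays. Only the DoxR-v arrays were apart. In these cells ACAA1 exceeded its WT level by log2 1.06 (adjusted p = 0.000866) and its DoxR level by 1.01 (adjusted p = 0.00085). ACOT8, a broad peroxisomal thioesterase, had 7.94, 7.92 and 7.74 on WT, 7.69, 8.06 and 7.69 on WT-v, 7.10, 7.08 and 7.13 on DoxR and 8.31, 8.24 and 8.34 on DoxR-v arrays. The DoxR arrays of ACOT8 were the lowest and the DoxR-v arrays the highest. It fell by 0.76 in DoxR cells (adjusted p = 0.000685) and stood 1.19 above that level in DoxR-v cells (adjusted p = 2.1e-05). The DoxR call against WT was lost without background correction (−0.51), with the deposited values (−0.43) and with median scaling (−0.43).

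The other peroxisomal members moved less. ACOX3, an oxidase for branched chains, was log2 0.63 higher in DoxR-v than in WT-v cells (adjusted p = 0.00724), but not called without the first WT-v array (0.50). This call was also lost without background correction (0.40), with an offset of 50 (0.52) and with the deposited values (0.33). HSD17B4, the bifunctional enzyme for very long and branched chains, and DECR2, the peroxisomal reductase, were not called against WT in any group.

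Vorinostat was given to both parental cells and cells under doxorubicin. For each member, the difference DoxR-v minus DoxR less the difference WT-v minus WT was therefore fitted. DoxR and DoxR-v came from parallel selections, so the first part cannot tell an effect of vorinostat from a difference between selections. The fitted value was above 0 and called for 15 members and below 0 for 2, where 20.4% and 22.1% of all genes were called. Median scaling, which moved the median of all genes to −0.22, left 10 and 3. The members' median was log2 0.54, against −0.04 over all genes. ECI2 had the largest value, 4.95 ± 0.34 (adjusted p = 2.7e-07), followed by ETFDH with 1.81 (adjusted p = 6.4e-05) and CPT2 with 1.58 (adjusted p = 6.4e-05). For ETFDH and CPT2 the WT-v difference was −0.39 and −0.35, and the DoxR-v difference from DoxR was 1.42 and 1.23. For HSD17B10, ECHS1 and ACSL1 the positive value came with a fall in WT-v cells and differences of 0.16, 0.14 and −0.13 between DoxR-v and DoxR cells. CPT1A, ACADVL, ACADM and HADHB had values of 0.10, 0.02, 0.08 and 0.21, which were not called.

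**Figure D5:**
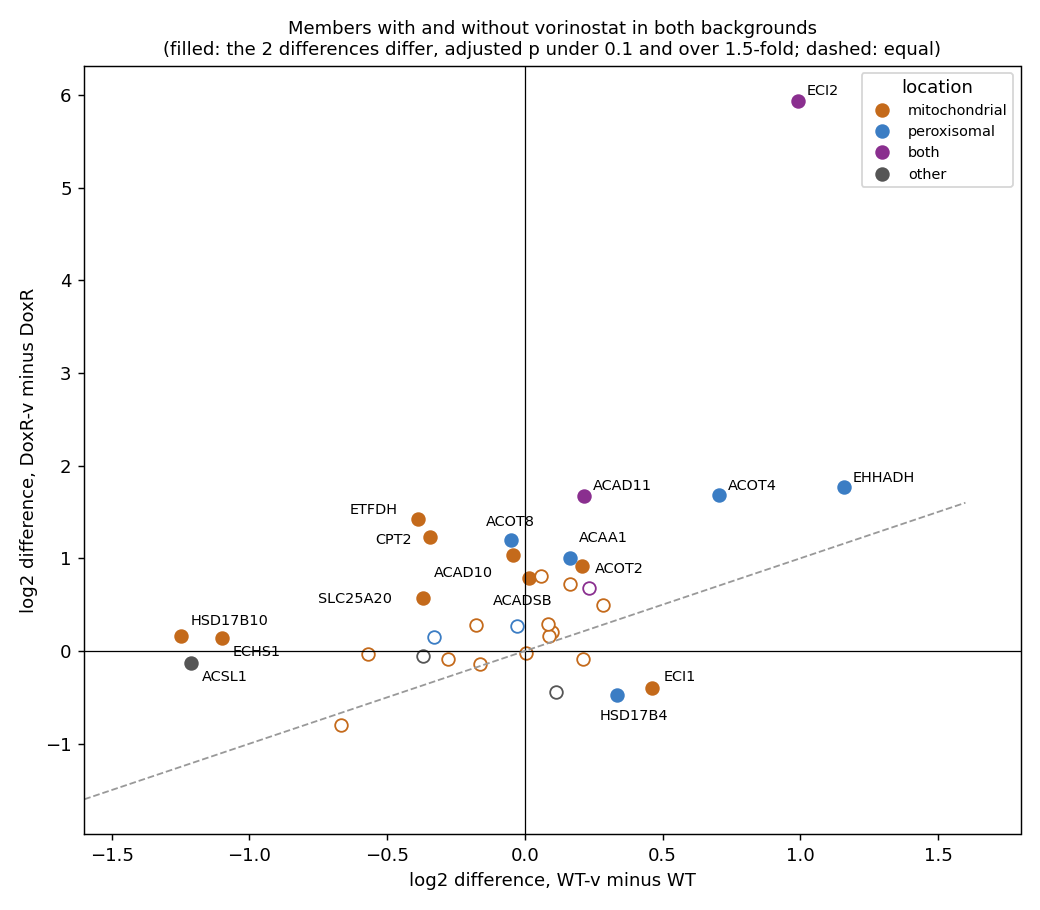
Log2 difference of DoxR-v from DoxR cells (vertical) against that of WT-v from WT cells (horizontal) for each of the 35 measured members, coloured by location. Filled, named points have differences that differ from each other by the fit, and the dashed line marks equal values. ECI2 is far above the line at 0.99 and 5.94, and only ECI1 and HSD17B4 among named points are below it.

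Further genes of the pathway, its regulators and genes of both organelles were counted for context. Of 15 measured genes of 26 in a further list of the pathway, 2 were higher and 2 lower in DoxR-v than in WT cells, where 13.3% and 12.6% of all genes were. PHYH, which starts the oxidation of phytanic acid, and CROT, which makes carnitine esters of peroxisomal products, rose (log2 1.11 and 1.43, adjusted p = 0.000467 and 0.000259). In DoxR cells 4 were higher and 6 lower, where 17.4% and 16.3% of all genes were, with CROT at 2.94 (adjusted p = 2.3e-07) and SLC25A17, a carrier of the peroxisomal membrane, at −1.66 (adjusted p = 7.8e-07).

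Of 13 measured regulators, 1 was higher and 2 were lower than in WT in DoxR-v cells, where 13.3% and 12.6% of all genes were. PDK4, a kinase that turns cells from glucose to fat, was detected on no WT array and was at least 1.05-fold higher (adjusted p = 0.000269). RXRB, a partner of nuclear receptors, differed by log2 −1.33 (adjusted p = 6.2e-05), and PPARD, a fatty acid receptor, by −0.81 (adjusted p = 0.0081). In DoxR cells 2 regulators were higher and 3 lower, where 17.4% and 16.3% of all genes were. ESRRG, an estrogen-related receptor, rose by 1.02 (adjusted p = 0.000337) and PRKAA1, a catalytic subunit of AMP-activated kinase, by 0.97 (adjusted p = 0.000756), while RXRB fell by 0.84 (adjusted p = 0.00125). PPARGC1A, a coactivator of mitochondrial genes, fell both in DoxR cells (by 1.22, adjusted p = 2.4e-05) and in WT-v cells (by 1.21, adjusted p = 5.8e-05). ACACA, whose product malonyl-CoA inhibits CPT1, fell by 1.24 in DoxR cells (adjusted p = 1.5e-05) and was not called in DoxR-v cells.

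Of 16 measured genes of mitochondrial import and mass, 0 were called in DoxR-v cells against WT in either direction by limma (2 had an unadjusted p under 0.05), and their median difference was log2 0.03. Of all genes 13.3% were higher and 12.6% lower in that comparison. In DoxR cells 2 of the 16 were lower than in WT, as were 16.3% of all genes. These were TOMM22, an import receptor (log2 −0.96, adjusted p = 5.4e-05), and PHB1, an inner-membrane scaffold (−1.80, adjusted p = 8.4e-07). PHB1 was also lower in WT-v cells (−0.59, adjusted p = 0.00811). In DoxR-v cells 3 of the 16 stood above their DoxR level, as did 14.7% of all genes. Of 11 peroxins, which build peroxisomes, 1 was called in DoxR-v cells (PEX14, log2 0.76, adjusted p = 0.00481), where 13.3% of all genes were called higher. In DoxR cells 1 was higher and 2 were lower, where 17.4% and 16.3% of all genes were. There PEX2, a ubiquitin ligase subunit, rose by 0.84 (adjusted p = 0.000388), while PEX6, an ATPase of receptor recycling, fell by 1.91 (adjusted p = 2.2e-05) and PEX11A, which acts in peroxisome division, fell by 1.15 (adjusted p = 0.00019). Of 3 measured genes of ketone body metabolism, OXCT1, which takes up ketone bodies, rose by 0.72 in DoxR (adjusted p = 0.00463) and 0.80 in DoxR-v cells (adjusted p = 0.00332).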

How the data were processed

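Arrays of SK-N-Be(2)C cells were used. As deposited by the authors, each probe had a signal intensity per array, not normalized between arrays, and a detection p-value. A second deposited table holds quantile-normalized intensities on a linear scale (median 149, lowest 116 on each array) and was an alternative. Lumi 2.13.3 and R 3.0.1 are named in the submitters' processing notes.

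Background was removed by normexp, with parameters taken from the detection p-values and an offset of 16, and arrays were then quantile normalized and log2-transformed (limma 3.58.1, R 4.3.3). Median array signals before this were 98.7 to 125, and the number of arrays limits the precision. Of 47323 probes, 30113 had 1 gene symbol, 8 several and 17202 none, and 30074 were matched to RefSeq by Entrez ID. The 21730 probes with a detection p under 0.01 on at least 1 array were fitted with 1 mean per group and an empirical Bayes spread, and p-values were adjusted over all of them by Benjamini-Hochberg. Genes took their brightest probe, which gave 12138 genes. Where a group was detected on no array, a fold change is a bound against the lowest detected signal of each array. The code was tested on simulated data.

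Members and lists were chosen with earlier results of these data known. Values of every array are given for 19 members: 6 fixed ones and those called in at least 2 of 6 comparisons with a change over 2-fold. Up to 4 genes per direction of another list were named by size of change, and neighbouring genes, ACOT1 and the shifted cell type markers were named after their values were seen. Most neighbours of the other members given in full were read too but are not shown. The alternatives were no background correction, an offset of 50, the deposited values, median scaling, other detection filters, a fit of only the compared groups, the mean over a gene's probes, a block for the replicate number, stricter thresholds and leaving out each array. Promoter sequences are RefSeq's (GRCh38.p14). ECI2, ACOT2 and HSD17B10 have 2 listed starts, of which the first was read.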

Additional observations from a re-analysis of the deposited data

Results flagged for a closer look

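For 17 members the difference between groups with and without vorinostat was not the same in parental cells and in cells under doxorubicin, by the fitted difference between these backgrounds. Positive log2 values of this difference (the change from DoxR to DoxR-v less the change from WT to WT-v) were 4.95 for ECI2, 1.81 for ETFDH, 1.58 for CPT2, 1.46 for ACAD11, 1.41 for HSD17B10, 1.24 for ECHS1, 1.24 for ACOT8, 1.09 for ACSL1, 1.08 for ACAD10, 0.97 for ACOT4, 0.94 for SLC25A20, 0.84 for ACAA1, 0.78 for ACADSB, 0.71 for ACOT2 and 0.61 for EHHADH. Negative values were −0.86 for ECI1 and −0.81 for HSD17B4. ACADSB was detected on no WT, WT-v or DoxR array, EHHADH on no DoxR array and ECI2 on 1 DoxR array, so their values rest partly on background and have no exact size. The adjusted p by limma ran from 2.7e-07 for ECI2 to 0.0759 for EHHADH. ECI1 differed by 0.46 in WT-v from WT cells and by −0.40 in DoxR-v from DoxR cells, and HSD17B4 by 0.34 and −0.47. The effect under doxorubicin also holds the difference between parallel selections.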

How the results depend on the processing

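Of the 80 calls of members over the 6 comparisons, 79 were kept without a detection filter, 78 with the mean of all probes, 79 at an adjusted p under 0.05, 76 with detection on at least 3 arrays (the other 4 were not measured), 70 with median scaling, 67 with an offset of 50, 59 without background correction, 51 with the deposited values and 37 with a change over 2-fold. No member changed sign in any of these where it had been called. Counts of called members moved by over 1.5 times as follows. Against WT, the 11 of DoxR cells became 7 without background correction, 7 with the deposited values and 4 over 2-fold, the 7 of WT-v cells became 4 over 2-fold, and the 15 of DoxR-v cells became 8 with the deposited values and 5 over 2-fold. The 15 of DoxR-v against DoxR became 9 over 2-fold, the 15 against WT-v became 9 without background correction, 7 with the deposited values and 6 over 2-fold, and the 17 of the difference of the vorinostat effect became 9 over 2-fold. Leaving out 1 array at a time gave 10 to 13, 7 to 8, 13 to 16, 13 to 16, 13 to 17 and 15 to 21 calls, in the order in which these comparisons were named. Both the uncorrected and the deposited signals keep the background, which shrinks differences of dim probes such as CRAT, ACADSB and ACADS.

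Replicate numbers did not pair the arrays: same-numbered arrays of different groups correlated at −0.27 to 0.11 in their deviations from the group means, and 1 of 12 arrays correlated best with its own number. With the replicate number as a block, 79 of 80 calls were kept, and 16 members were called for the difference of the vorinostat effect. The call lost was that of EHHADH, which several other alternatives also ended.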
